A study of Rattus norvegicus with 6 samples.

Results

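The intermediate filament and lamin genes followed here were Nes, Vim, Gfap, Ina, Nefl, Nefm, Lmna, Lmnb1, Lmnb2 and Sync. They were found by gene symbol, 1 row for each of the 10 among the 16881 different symbols of the count tables. Of these genes, 9 had a count in at least 1 of the 6 libraries and 7 passed the filter on low counts (Nes, Vim, Ina, Lmna, Lmnb1, Lmnb2 and Sync). Nefl had no count in any library, and Gfap and Nefm had counts in a single library each, so these 3 genes could not be tested. The 7 tested genes include some that passed the filter through a few high libraries.

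The libraries came from wild-type rat neural stem/progenitor cells (NSPCs), prepared per the study's methods from embryonic telencephalon of Sprague-Dawley rats. All cells, those on the “High” film included, were kept for 24 h in stemness maintenance medium with growth factors on a carbon film, a layer of carbon nanotube and oxidized graphene nanoribbon. The films were called “High”, “Medium” and “Low” by their electrical conductivity, with 2 libraries for each. The comparison asks whether a conductivity like that of neural tissue (“Low” and “Medium”) and one above it (“High”) leave different RNA profiles. No culture without a carbon film was among the libraries. For adhesion assays the methods give the same poly-D-lysine precoat for “High” and “Low” and another for “Medium”, chosen so that similar amounts of laminin were bound, and for the sequenced cultures they give no coating. If the same precoats were used there, film and precoat cannot be told apart in comparisons with “Medium”. Neither the labels nor the methods say whether the 2 libraries of a film came from separate cultures or animals, and no batch was given, so the p-values measure the spread between these libraries, which may be technical.

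Total counts were 5478066 and 5412882 on “High”, 5124863 and 5914540 on “Medium”, and 6213676 and 5460031 on “Low”. The libraries of a film were not close to each other. CPM are counts scaled to the library size. The correlation of log2 CPM across genes between the 2 libraries of a film was 0.617 on “High”, 0.607 on “Medium” and 0.638 on “Low”, where genes are not independent replicates. The number of rows at 0 in one library and at 50 counts or more in the other was 1420 on “High”, 2084 on “Medium” and 1408 on “Low”. Rows named for ribosomal RNA took 26.1% and 38.4% of the counts on “High”, 7.27% and 13.0% on “Medium”, and 7.16% and 7.64% on “Low”. When these rows were left out of the scaling, the log2 fold change of “Low” and “Medium” against “High” was 1.63 for Nes, 0.57 for Vim and -1.41 for Lmna. With them it was 1.64, 0.58 and -1.41. Any other part of this difference in the results was not tested. The labelled cell type had its markers: Sox2 and Sox9, transcription factors of neural progenitors, had counts in all 6 libraries, as had Nes and Vim. Hes5 and Prom1, which also mark neural progenitors, were at 0 in all 6 libraries.

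Intermediate filaments are rope-like polymers of coiled-coil proteins that give a cell mechanical strength. In the cytoplasm, neural progenitors build them from vimentin and nestin, astrocytes add GFAP, and neurons replace them with alpha-internexin and the neurofilament proteins. In the nucleus, lamins form a mesh under the inner membrane, and the balance of A-type (Lmna) to B-type lamins (Lmnb1, Lmnb2) differs between cell types, with A-type lamin being low in neural progenitors and in soft tissues such as brain.

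RefSeq promoter sequence (build GRCr8) was found for 8 of the 10 genes, and the 250 bases before the start are shown for the 3 genes whose libraries on “Low” and “Medium” did not overlap those on “High”. The deposited counts were made on another build, rn6, so these coordinates belong to RefSeq alone. The Nes promoter lies at chr2:175736338-175736587 on the plus strand, that of Vim at chr17:81577011-81577260 on the plus strand and that of Lmna at chr2:176258236-176258485 on the minus strand. Each sequence reads 5′ to 3′ along its gene, and capitals mark matches to 5 motifs searched on both strands and spelled out after the sequences.
Nes: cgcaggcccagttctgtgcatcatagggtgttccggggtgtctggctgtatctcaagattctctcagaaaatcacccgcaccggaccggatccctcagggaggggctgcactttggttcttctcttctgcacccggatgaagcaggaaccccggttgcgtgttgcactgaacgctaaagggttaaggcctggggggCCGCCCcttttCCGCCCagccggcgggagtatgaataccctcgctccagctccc
Vim: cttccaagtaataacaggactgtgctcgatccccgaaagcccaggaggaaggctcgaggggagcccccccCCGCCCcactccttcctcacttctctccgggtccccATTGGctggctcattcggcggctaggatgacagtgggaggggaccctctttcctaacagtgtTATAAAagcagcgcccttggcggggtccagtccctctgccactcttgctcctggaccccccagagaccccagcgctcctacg
Lmna: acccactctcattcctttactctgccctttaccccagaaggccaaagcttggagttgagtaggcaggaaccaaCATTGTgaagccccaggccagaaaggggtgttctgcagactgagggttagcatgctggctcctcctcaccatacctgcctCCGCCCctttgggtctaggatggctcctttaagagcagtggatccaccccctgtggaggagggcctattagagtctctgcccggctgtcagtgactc
All 3 promoters held the GC box GGGCGG, a motif that 30.5% of the 33469 promoters of this length held. Nes had it on the reverse strand at 54 and at 43 bases before the start, Vim at 180 bases and Lmna at 97 bases. Vim was alone among the 3 in holding the TATA box, spelled TATAAA, at 82 bases before the start, a motif found in 12.9% of all promoters, and the CCAAT box on the reverse strand at 144 bases, which 34% of them held. Lmna held the letters ACAANG, the SOX core, on the reverse strand at 177 bases before the start, which 36.9% of all promoters held, and none of the 3 held the AP-1 site TGANTCA, present in 6.34%. The GC content of these promoters was 60.4% for Nes, 62.4% for Vim and 56.4% for Lmna. A match is a run of letters and not a measured binding site.

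Among the cytoplasmic filament genes, Nes and Vim had more counts on “Low” and “Medium” than on “High” in all libraries, and among the lamins Lmna had fewer. None of the 3 differences passed edgeR's quasi-likelihood test after adjustment over all 7729 rows tested, whereas all 3 passed DESeq2. Of all rows, DESeq2 called 2.57% higher and 1.93% lower on “Low” and “Medium”. The libraries did not overlap in 8.06% of rows with higher and 10.1% with lower values there. For 2 libraries of one film against 2 of another, the share of all rows without overlap was not counted. An exact permutation test cannot go below p = 0.333 there, so separations between single films are given here and below as description only. There were 4 genes, Nes, Vim, Lmna and Lmnb2, with counts in all 6 libraries, and the other genes were at 0 or near it in at least 1 library. In bulk RNA, fewer cells with a transcript and less of it per cell cannot be told apart.

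Nes encodes nestin, the filament protein used as a marker of neural progenitors. Its level in TMM-normalized CPM was 92.7 and 82.1 on “High”, 408 and 327 on “Medium”, and 199 and 207 on “Low”. The groups did not overlap: both “Medium” libraries were highest, both “Low” libraries lay between, and both “High” libraries were lowest. The means were 87.4 ± 7.53 on “High”, 368 ± 57.8 on “Medium” and 203 ± 5.67 on “Low” (SD, n = 2 each), a ratio to “High” of 4.21 for “Medium” and of 2.32 for “Low”. In “Low” and “Medium” against “High” the log2 fold change was 1.64, with a standard error of 0.43 and a 95% interval of 0.69 to 2.59 (edgeR's quasi-likelihood test, adjusted p = 0.468). DESeq2 gave 1.59 with an adjusted p of 3.1e-05, so the call depends on the tool.

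Taken film by film, the log2 fold change of Nes against “High” was 2.07 on “Medium” (95% interval 1.02 to 3.12, edgeR adjusted p = 0.351) and 1.21 on “Low” (0.19 to 2.24, edgeR adjusted p = 0.899). In DESeq2 both passed, with an adjusted p of 2.6e-06 for “Medium” and 0.0384 for “Low”. “Low” and “Medium” were set against each other as well: Nes was 1.81 times higher on “Medium”, a log2 fold change of “Low” to “Medium” of -0.86 with an interval of -1.87 to 0.16 (edgeR, adjusted p = 1). The 2 libraries of each film lay apart, but the interval spans 0.

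Vim encodes vimentin, the main filament protein of early neural progenitors and of mesenchymal cells. Its level was 2146 and 1980 CPM on “High”, 3096 and 2992 on “Medium”, and 2556 and 3680 on “Low”. All 4 “Low” and “Medium” libraries were above both “High” libraries, while “Low” spread over a range that took in both “Medium” libraries. The means were 2063 ± 117 on “High”, 3044 ± 73.8 on “Medium” and 3118 ± 795 on “Low” (SD, n = 2 each), 1.48 and 1.51 times “High”. The log2 fold change of “Low” and “Medium” against “High” was 0.58, with a standard error of 0.20 and an interval of 0.13 to 1.03 (edgeR, adjusted p = 0.778). DESeq2 gave 0.52 with an adjusted p of 0.0411. By film, the log2 fold change against “High” was 0.56 on “Medium” (0.05 to 1.07, edgeR adjusted p = 0.908) and 0.60 on “Low” (0.09 to 1.10, edgeR adjusted p = 0.899), and that between “Low” and “Medium” was 0.03.

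Vim was by far the most counted of the 10 genes. It took 79.9% and 84.6% of their summed counts on “High”, 83.2% and 83.3% on “Medium”, and 89.6% and 90.4% on “Low”. By raw count, its row stood between place 7 and place 30 of 17048 in every library, while Nes stood between place 420 and place 2316. These are 3′ counts, in which a transcript is counted at its end and its length does not enter. Together the 10 genes took 0.238% and 0.181% of all counts on “High”, 0.423% and 0.370% on “Medium”, and 0.317% and 0.444% on “Low”. These shares are of all counts, ribosomal RNA rows included, which took 26.1% and 38.4% of the counts on “High”. In TMM-normalized CPM the 10 genes summed to 2685 and 2340 on “High”, 3721 and 3593 on “Medium”, and 2853 and 4071 on “Low”. Most of each sum was Vim, and “Low” replicate 1 lay close to “High” replicate 1.

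**Figure D1:**
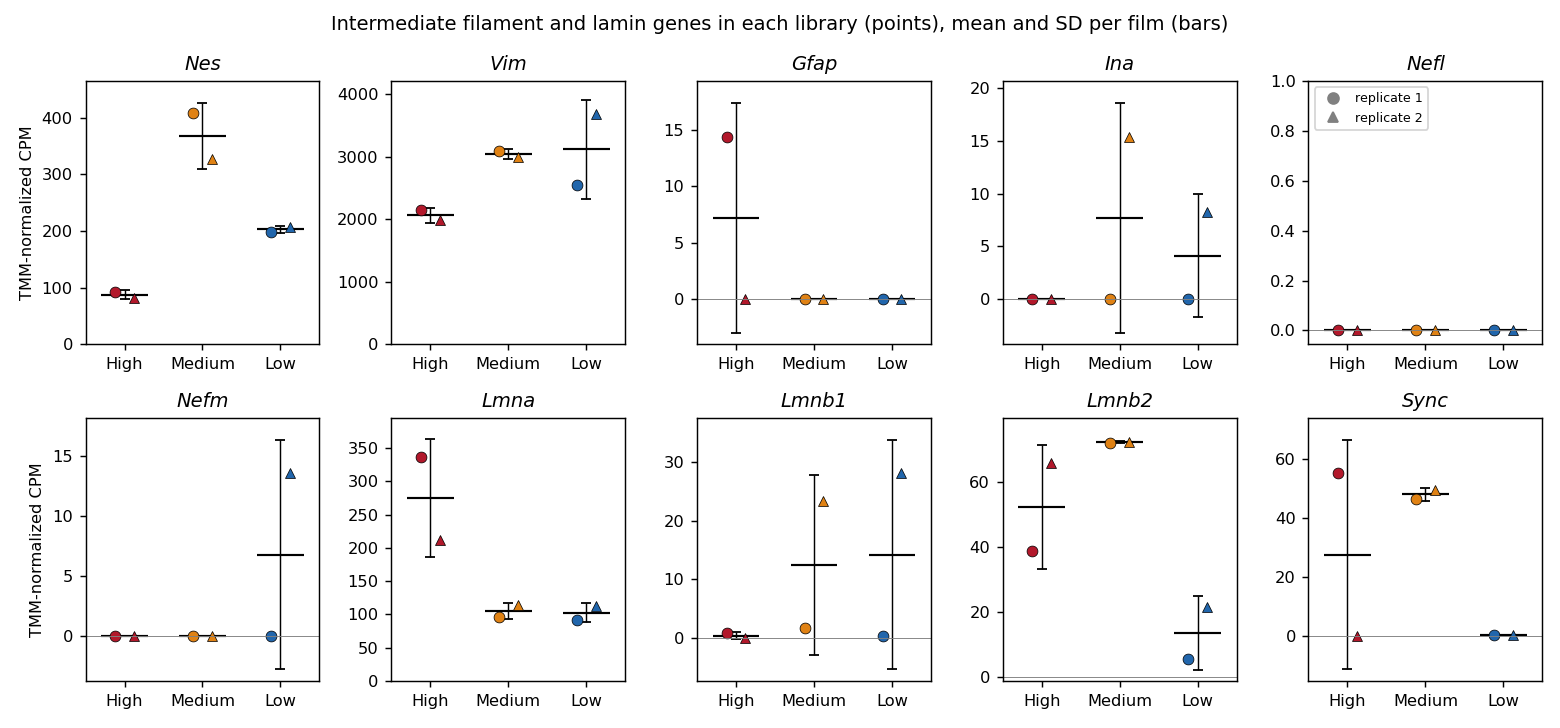
TMM-normalized CPM (vertical axes, one scale per gene) of the 10 genes on the “High”, “Medium” and “Low” films, with 1 point per library and bars for the mean and SD of the 2 libraries. Nes and Vim sit lower and Lmna higher in both “High” libraries than in the other 4, while Gfap, Ina, Nefm and Sync move between 0 and their highest value within a film. Lmnb1 is high in replicate 2 of “Medium” and of “Low” alone, and Nefl is at 0 throughout.

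Lmna encodes lamins A and C, which the counts do not tell apart. Its level was 337 and 212 CPM on “High”, 96.5 and 113.5 on “Medium”, and 92.3 and 112 on “Low”. Both “High” libraries were above all others, though they differed from each other by more than the libraries of the other films, and “Medium” and “Low” overlapped. The means were 274 ± 88.5 on “High”, 105 ± 12.1 on “Medium” and 102 ± 14.1 on “Low” (SD, n = 2 each), 2.61 times higher on “High” than on “Medium” and 2.68 times higher than on “Low”. The log2 fold change of “Low” and “Medium” against “High” was -1.41, with a standard error of 0.47 and an interval of -2.45 to -0.37 (edgeR, adjusted p = 0.778). DESeq2 gave -1.46 with an adjusted p of 0.0062. By film it was -1.39 on “Medium” (-2.65 to -0.12, edgeR adjusted p = 0.908, DESeq2 adjusted p = 0.0340) and -1.42 on “Low” (-2.69 to -0.15, edgeR adjusted p = 0.899, DESeq2 adjusted p = 0.0291).

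The B-type lamins, which stay attached to the membrane through a farnesyl group, had other patterns than Lmna over the libraries. Lmnb2, the gene of lamin B2, had 38.7 and 65.8 CPM on “High”, 71.9 and 72.3 on “Medium”, and 5.51 and 21.5 on “Low”. “Low” was lowest in both libraries without overlap, and both “Medium” libraries were above both “High” libraries, which with 2 libraries per film is description only. The means were 52.3 ± 19.2, 72.1 ± 0.298 and 13.5 ± 11.3 on “High”, “Medium” and “Low” (SD, n = 2 each), so “Medium” was 5.34 times “Low”. This ratio rests on the “Low” libraries, since the log2 fold change of “Low” to “Medium” was -1.75 without Low replicate 1 and -3.71 without Low replicate 2. The libraries spread widely in the fit: the log2 fold change of “Low” to “Medium” was -2.42 with an interval of -6.16 to 1.33, and that of “Low” and “Medium” to “High” was -0.74 with an interval of -3.75 to 2.26 (edgeR adjusted p = 1 for both).

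Lmnb1, the gene of lamin B1, had raw counts of 4 and 0 on “High”, 10 and 142 on “Medium”, and 3 and 167 on “Low”. Replicate 2 of “Medium” and replicate 2 of “Low” were high, and the other 4 libraries were at 10 counts or fewer. In CPM these 2 libraries were at 23.3 and 28.03, beside 1.72 and 0.435 in the other library of each film. Within “Medium” and within “Low” the libraries thus differed by more than the means of the films. Lmnb1 passed the filter only through the films where it was high, so no test is read from it.

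**Figure D2:**
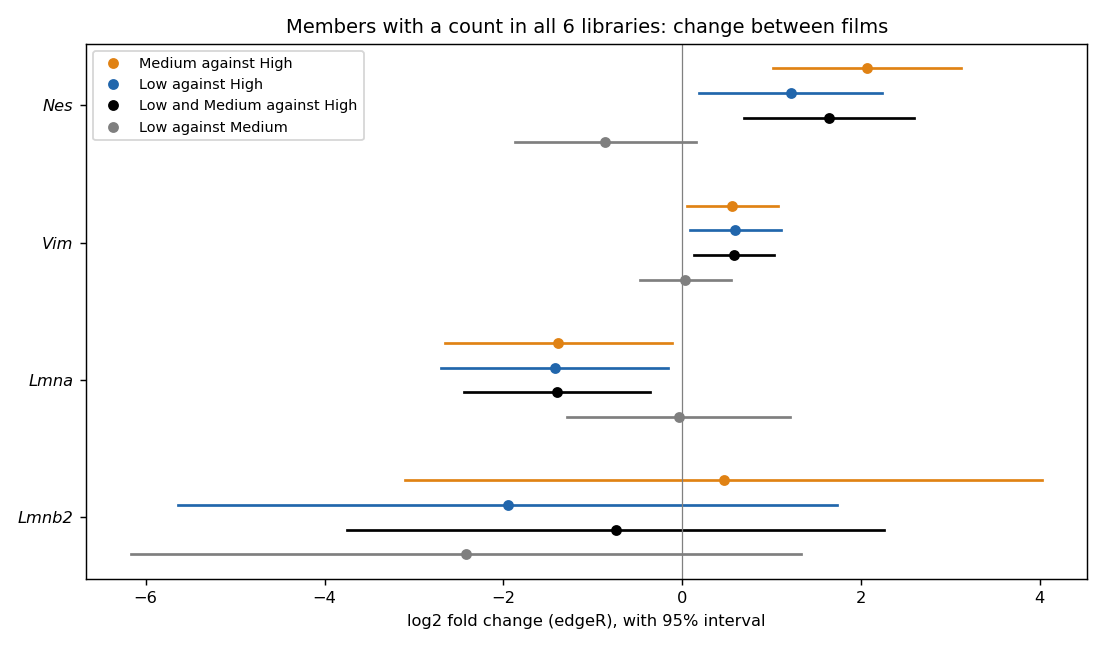
Log2 fold change from edgeR (horizontal axis, points) with its 95% interval (lines) for the 4 genes with a count in all 6 libraries, in each of the 4 contrasts. The intervals of Nes and Vim against “High” lie above 0 and those of Lmna below 0, while every interval of Lmnb2 spans 0, as do those between “Low” and “Medium”. The intervals are per gene and not adjusted for the number of rows tested. No contrast of these genes passed edgeR's test after adjustment.

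Neuronal filament genes and an adaptor were seen in part of the libraries. Ina encodes alpha-internexin, a filament protein of developing neurons, and had 94 counts in “Medium” replicate 2, 49 counts in “Low” replicate 2 and 0 in the other 4 libraries. Against “High”, where both libraries were at 0, its mean CPM was at least 11.6-fold higher on “Medium” and at least 6.17-fold higher on “Low”, when the 0s are set to a floor of 3 counts per library. A single library carried each of these means, and the other library of each film was at 0 as well. Ina passed the filter only through the films where it was high, so no test is read from it. Nefm, the gene of the medium neurofilament chain, had 81 counts in “Low” replicate 2 and none elsewhere, at least 10.2-fold over “High” by the same floor. Nefl, the gene of the light chain, was at 0 in all 6 libraries, where 3 counts would stand for 0.435 to 0.716 CPM.

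Gfap, the filament gene of astrocytes, had 70 counts in “High” replicate 1 and none in the other 5 libraries. At 14.4 CPM in that library, its mean on “High” was at least 15.4-fold over “Low” and at least 14.3-fold over “Medium” by the floor, but it was absent from the other “High” library too. Sync encodes syncoilin, a filament-associated protein that binds the dystrophin complex in muscle. Its counts were 268 and 0 on “High”, 271 and 302 on “Medium”, and 1 and 1 on “Low”. “Medium” was high in both libraries and “Low” was at 1 count in both, whereas the “High” libraries fell on either side. For Sync edgeR gave an adjusted p of 0.836 in “Low” and “Medium” against “High”. The floors here cover counting error only, and the reads carried no molecular identifiers.

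Counted over the tested genes, edgeR called 0 of 7 in “Low” and “Medium” against “High”, beside 0.0388% of all rows called higher and 0.0906% called lower. It also called 0 of 7 on “Low” against “High” (0% of all rows higher and 0.0518% lower), on “Medium” against “High” (0% higher and 0.0129% lower) and on “Low” against “Medium” (0% higher and 0% lower). At an unadjusted p under 0.05, edgeR had 2 of the 7 higher on “Low” and “Medium” (Nes and Vim) and 1 lower (Lmna), where 2.69% of all rows were higher and 2.81% lower. DESeq2 called the same 3 genes in the same directions, beside 2.57% of all rows called higher and 1.93% called lower. On “Low” against “High” DESeq2 called Nes higher and Lmna lower, beside 1.73% of all rows higher and 1.88% lower, and on “Medium” against “High” it called the same pair, beside 2.03% higher and 1.89% lower. The libraries of “Low” and “Medium” were all above those of “High” for Nes and Vim and all below for Lmna, as they were for 8.06% and 10.1% of all rows.

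The films were also compared by ratios within each library, which do not depend on scaling. There were 23.1 and 24.1 Vim counts per Nes count on “High”, 7.58 and 9.15 on “Medium”, and 12.9 and 17.8 on “Low”. The 3 films did not overlap, with “High” highest and “Medium” lowest. On the log2 scale the means were 4.56 ± 0.04, 3.06 ± 0.19 and 3.92 ± 0.33 on “High”, “Medium” and “Low” (SD, n = 2 each), and “Low” and “Medium” were lower than “High” by a difference of -1.07. The exact two-sided permutation test over the 15 regroupings gave p = 0.133, the smallest that 4 libraries against 2 allow, so this design cannot pass 0.05.

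The ratio of B-type to A-type lamin counts (Lmnb1 and Lmnb2 summed, per Lmna count) was 0.118 and 0.312 on “High”, 0.764 and 0.843 on “Medium”, and 0.0658 and 0.442 on “Low”. “Medium” was highest in both libraries, while “Low” spread below and above “High”. The log2 means were -2.38 ± 0.99, -0.32 ± 0.10 and -2.55 ± 1.94 on “High”, “Medium” and “Low” (SD, n = 2 each). The difference of “Low” and “Medium” to “High” was 0.95 (exact two-sided permutation test, p = 0.533), less than the SD of the “Low” libraries.

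**Figure D3:**
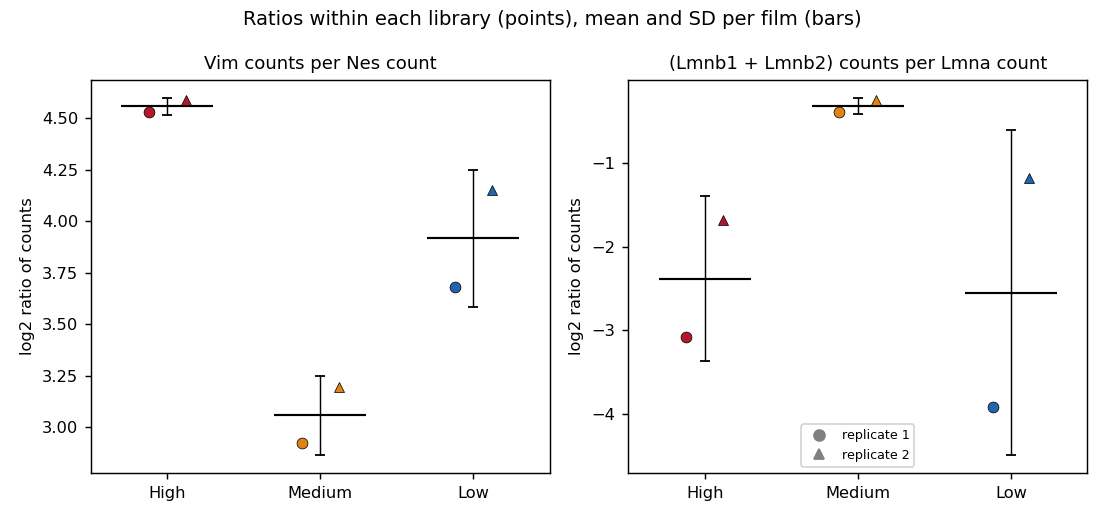
Log2 ratio of counts within each library (vertical axes), with 1 point per library and bars for the mean and SD of the 2 libraries of each film. Vim per Nes (left) separates the 3 films, with “High” at 4.56 and “Medium” at 3.06, while B-type per A-type lamin (right) is high and close together on “Medium” and spread out on “High” and “Low”.

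Across the 6 libraries, Nes and Vim had a Pearson correlation of 0.796 on the log2(CPM + 1) scale (Spearman 0.829). Nes and Lmna had -0.838 (Spearman -0.543), and Lmnb2 had 0.071 with Nes and 0.302 with Lmna. These values describe 6 libraries that share their film in pairs, and no test was made. Among 2726 genes of sufficient level, those with the pattern most like Nes were Snrpd1 (0.995), a core protein of the splicing machinery, Cd93 (0.988), a receptor of endothelial and myeloid cells, and Fn1 (0.972), which encodes fibronectin. Those most like Vim were Aph1a (0.986), a subunit of gamma-secretase, Nme7 (0.984) and Rrs1 (0.981), a ribosome assembly factor. Those most like Lmna were Rab21 (0.988), a small GTPase of endosomes, Tra2b (0.981), a splicing factor, and Amd1 (0.981), an enzyme of polyamine synthesis, and those most like Lmnb2 were Ppp1cc (0.976), a phosphatase subunit, Safb2 (0.969) and Golga7 (0.966).

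Genes that work with these filaments or lamins, progenitor transcription factors and cell type markers were taken from 13 lists, 12 of which had at least 1 tested gene. In none of the lists did edgeR call a gene in any of the 4 contrasts. To describe a list, the log2 ratio of mean CPM on “Low” and “Medium” to that on “High” was taken with each library raised to at least 3 counts, a scale on which the median of all tested rows was 0.05. The 7 tested filament and lamin genes had a median of 0.58, with 4 above 0 and 3 below it. Scaled by library sizes alone, all rows had a median of 0.44 and these genes one of 0.97, with 6 above 0 and 1 below, so the values of a list are to be read beside that of all rows. A gene at 0 on a film could pass the filter only through the other films, so these medians and counts describe the tested genes and are set in part by the filter.

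Of 21 other intermediate filament proteins (keratins, peripherin, desmin and the like), 20 were in the tables, 7 had a count and 13 were at 0 in all libraries, among them Nefh and Des. The 4 that could be tested had a median of 3.26, 3 above 0 and 1 below, where the 3 had at most 1 count on “High” and passed the filter through the other films. These were sparse genes: Iffo2 had 114 counts in “Medium” replicate 2, 113 in “Low” replicate 2 and 0 in the other 4 libraries, and Krt8, whose reads can be shared with near-identical copies, had 77 and 156 in the same 2 libraries and at most 1 elsewhere. Iffo1 had 15 counts in “Medium” replicate 2, 93 in “Low” replicate 1 and 0 elsewhere. Krt10 had 161 and 116 counts on “High”, 0 and 0 on “Medium”, and 197 and 0 on “Low”. The high libraries were thus not those of one film.

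Of 16 cytolinkers and filament partners, 11 were in the tables, 5 had a count and 3 were tested, with a median of 0.49, 2 above 0 and 1 below. Dag1, the gene of dystroglycan, which links the cytoskeleton to laminin, had 348 and 489.5 CPM on “High”, 507 and 501 on “Medium”, and 693 and 657 on “Low”, with no overlap between “High” and the rest and a log2 fold change of 0.48 (SE 0.27, edgeR adjusted p = 0.801). Macf1, a linker of actin and microtubules, was at 79.9 and 69.9 CPM on “High”, 124 and 175.5 on “Medium”, and 74.5 and 63.6 on “Low”, so that “Medium” alone stood apart. Trim32, a ubiquitin ligase, had 80 and 352 counts on “High”, 0 and 671 on “Medium”, and 252 and 99 on “Low”, with all films overlapping. Among 18 kinases of filament proteins and small heat shock proteins, 12 were tested, with a median of 0.43, 10 above 0 and 2 below. Prkaca, the catalytic subunit of protein kinase A, had 91.9 and 115 CPM on “High”, 105 and 294 on “Medium”, and 411 and 249 on “Low”, a log2 fold change of 1.31 (SE 0.54, edgeR adjusted p = 0.801), with “Medium” overlapping “High”. Camk2b, Rock2 and Plk1 were the other kinases of the highest level, with log2 fold changes of 0.41, 0.33 and 0.16. “Medium” overlapped “High” for all 3 of these, and “Low” overlapped “High” for Plk1, whereas both “Low” libraries were above “High” for Camk2b and Rock2. Aurkb, a mitotic kinase chosen after its values were seen, had no count on “High”, 108 and 33 on “Medium”, and 91 and 84 on “Low”. It passed the filter only through the films where it was high, so no test is read from it. Cryab and Pak1, chosen likewise, also had no count on “High” and are among those above 0. Hspb1, a small heat shock protein chosen likewise, went the other way. It had 288 and 119 counts on “High”, 120 and 0 on “Medium”, and 24 and 6 on “Low”, with “High” highest in CPM.

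The list of inner nuclear membrane and lamina partners, which also holds nuclear pore proteins, torsins and soluble Banf1, had a median of -0.33 over 13 tested genes, 4 above 0 and 9 below, which turned to 0.13 with 7 above and 6 below under library sizes alone, where all rows had 0.44. Tor1aip2, an activator of the torsin ATPase, had 199 and 200.4 CPM on “High”, 78.8 and 93.5 on “Medium”, and 28.8 and 122 on “Low”. All 4 libraries of “Low” and “Medium” were below both of “High”, with a log2 fold change of -1.31 (SE 0.68, edgeR adjusted p = 0.801). Banf1, which bridges lamina and DNA, had 267 and 476 CPM on “High”, 329 and 355 on “Medium”, and 83.6 and 244 on “Low”, where both “Low” libraries were lowest. Tmpo, the gene of the lamin-binding LAP2 proteins, had 1175 and 566 counts on “High”, 0 and 964 on “Medium”, and 982 and 1728 on “Low”, and here the libraries of all films overlapped, as they did for Tpr, a nuclear pore protein (log2 fold change -0.17). Lbr, the gene of the lamin B receptor, was at 0 in all 6 libraries.

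Of 7 genes of the LINC complex and its partners, which join the lamina to the cytoskeleton, 4 were in the tables and Tmem43 alone was tested. Tmem43, an inner nuclear membrane protein, had 48.4 and 183 CPM on “High”, 5.15 and 20.2 on “Medium”, and 17.7 and 8.22 on “Low”. Both “High” libraries were above the other 4, with a log2 fold change of -3.18 (SE 1.37, edgeR adjusted p = 0.801, DESeq2 adjusted p = 0.0496). The 6 genes of a list on lamin prenylation and processing, 5 enzymes and Narf, were all tested, with a median of 1.04, 5 above 0 and 1 below. Zmpste24, the protease that cuts prelamin A, had 109 and 0 counts on “High”, 0 and 139 on “Medium”, and 575 and 0 on “Low”, present in 1 library of each film. Icmt, which methylates the farnesylated end, had 34.8 and 14.1 CPM on “High”, 111 and 31.8 on “Medium”, and 52.9 and 34.7 on “Low”, and its films overlapped. “Medium” overlapped “High” for Fnta, a farnesyltransferase subunit (log2 fold change 0.36). Narf, which binds prelamin A, had 283 and 263 counts on “High”, 0 and 146 on “Medium”, and 0 and 181 on “Low”, highest in both “High” libraries.

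**Figure D4:**
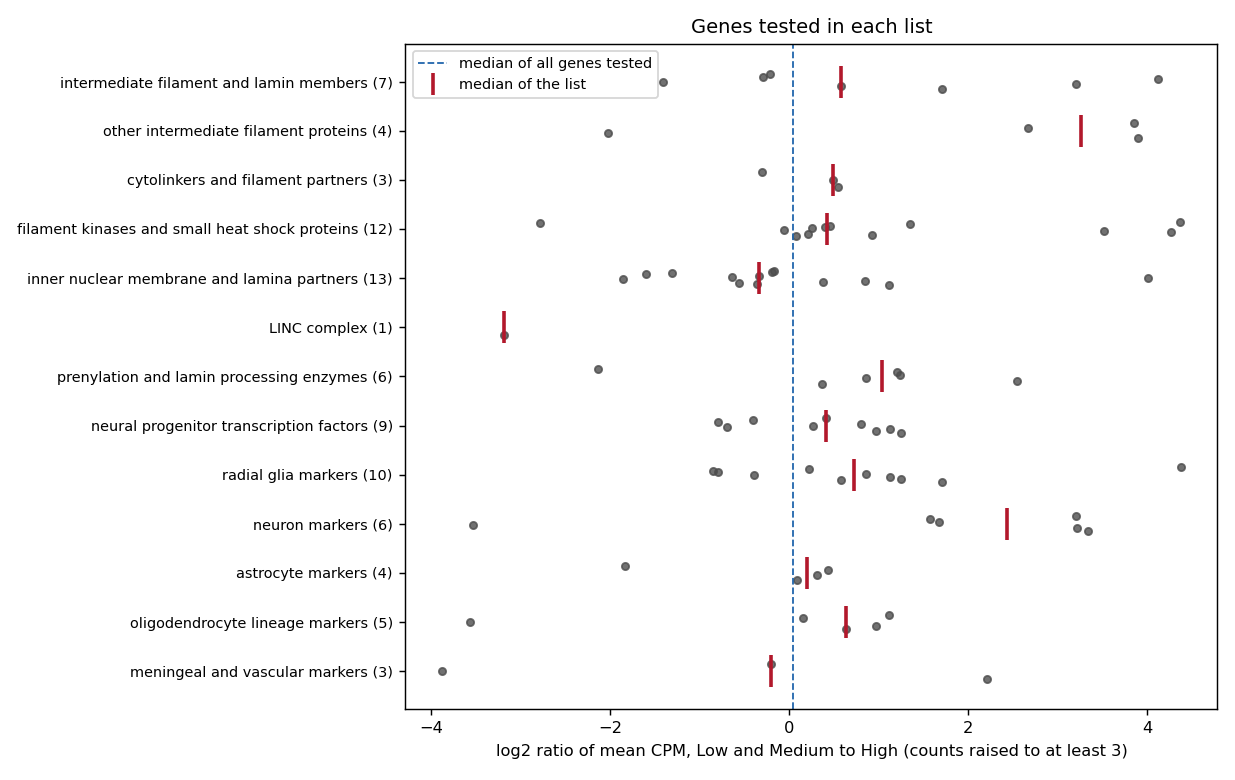
Log2 ratio of mean CPM on “Low” and “Medium” to that on “High”, with each library raised to at least 3 counts (horizontal axis), for the tested genes of each list (points, their number in parentheses). Red bars are list medians and the dashed line is the median of all rows tested, 0.05. The inner nuclear membrane and lamina partners have a median of -0.33, which turns to 0.13 under library sizes alone, and the 7 filament and lamin genes one of 0.58, and most lists hold points on both sides of 0.

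Markers of the progenitor state and of other cell types were set beside Nes and Vim. Of 13 progenitor transcription factors, 9 were tested, with a median of 0.41, 6 above 0 and 3 below. Below 0 were Pou3f1, Nfib and Hes1, chosen after their values were seen, whose libraries overlapped “High” on both films. Zbtb20 (log2 fold change 0.38) overlapped “High” on both films too, while Pou3f3 (0.78) was above “High” in all “Low” and “Medium” libraries. Sox2, a factor of neural stem cells, had 268 and 266 CPM on “High”, 598 and 554 on “Medium”, and 705 and 683 on “Low”. “High” was lowest and “Low” highest without overlap, with a log2 fold change of 1.24 (SE 0.27, edgeR adjusted p = 0.212, DESeq2 adjusted p = 1.5e-07). Sox9, a glial and progenitor factor, had 594 and 621 CPM on “High”, 953 and 1391 on “Medium”, and 950 and 1467 on “Low”, again with both “High” libraries lowest, and a log2 fold change of 0.97 (SE 0.27, edgeR adjusted p = 0.517, DESeq2 adjusted p = 0.00316). The 12 radial glia markers, a list that holds Nes, Vim and Sox2, had 10 tested genes with a median of 0.72, 7 above 0 and 3 below, and summed to 3283 and 2859 CPM on “High”, 4856 and 4640 on “Medium”, and 4133 and 5188 on “Low”. Vim was the most abundant of them. Fabp7, below 0, had 205 and 225 CPM on “High”, 342 and 156 on “Medium”, and 42.3 and 119 on “Low”, with both “Low” libraries lowest. Hes1 and Glul were also below 0, and their films overlapped. These were chosen after their values were seen.

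Neuron markers, among them Ina, Nefl and Nefm, had a median of 2.44 over 6 tested genes of 15, 5 above 0 and 1 below. Of these, Ina, Map2 and Tubb3 had no count on “High” and passed the filter through the other films, while Elavl3, Stmn2 and Snap25, seen on “High” alone, did not pass it, so nothing is read from this median. Their sum was 234 and 43.9 CPM on “High”, 133 and 301 on “Medium”, and 319 and 201 on “Low”, so the films overlapped, and Rbfox3, Syp and Syt1, markers of mature neurons, were at 0 in all libraries. Gap43, a growth cone protein, had 277 and 77 counts on “High”, 157 and 889 on “Medium”, and 1157 and 658 on “Low”, and Elavl4, a neuronal RNA-binding protein, had 230 and 54, 615 and 751, and 811 and 233. In CPM, both “Low” libraries were above “High” for Gap43 and both “Medium” libraries for Elavl4, whereas “Medium” overlapped “High” for Gap43 and “Low” overlapped “High” for Elavl4. Tubb3, an early neuronal tubulin, had 96 and 72 counts on “Low” and none on the other films. It passed the filter through “Low” alone, so no test is read from it. Mapt, the gene of the axonal protein tau, went the other way, with 469 and 0 counts on “High”, 0 and 94 on “Medium”, and 0 and 0 on “Low”. Its edgeR adjusted p was 0.801 and its DESeq2 adjusted p 0.00532 in “Low” and “Medium” against “High”. On “Low” against “High” DESeq2 gave an adjusted p of 1.4e-06, with the counts on “High” all in replicate 1. Among the untested neuron markers, chosen after their values were seen, Elavl3 (100 counts) and Stmn2 (60 counts) were found in “High” replicate 1 alone and Snap25 (52 counts) in “High” replicate 2 alone, while Dcx had 85 counts in “Low” replicate 2 and at most 1 elsewhere. Astrocyte markers, among them Gfap, had a median of 0.21 over 4 tested genes of 10, 3 above 0 and 1 below, and summed to 157 and 172 CPM on “High”, 146 and 220 on “Medium”, and 129 and 220 on “Low”, with Aqp4, Aldh1l1 and Slc1a2 at 0 throughout. Their 4 most counted tested genes, Gja1, Aldoc, S100b and Sparcl1, had “Low” and “Medium” libraries that overlapped “High”. Oligodendrocyte lineage markers had a median of 0.64 over 5 tested genes of 10, 4 above 0 and 1 below, and summed to 351 and 439 CPM on “High”, 691 and 605 on “Medium”, and 838 and 652 on “Low”. Olig2, their early factor, had 172 and 179 CPM on “High”, 346 and 303 on “Medium”, and 346 and 388 on “Low”, lowest in both “High” libraries (log2 fold change 0.97, SE 0.34, edgeR adjusted p = 0.778, DESeq2 adjusted p = 0.0152), while Sox10 and Mag were at 0 in all 6. Olig1, its close relative, had 714 and 745 counts on “High”, 955 and 1401 on “Medium”, and 2777 and 1302 on “Low”, and in CPM “Medium” overlapped “High”. Cnp, an enzyme of myelin-forming cells, had 126 and 107 counts on “High”, 302 and 301 on “Medium”, and 622 and 195 on “Low”, with “High” lowest in CPM. Cspg4, the NG2 gene of oligodendrocyte precursors, went the other way, with 0 and 236 counts on “High”, 0 and 50 on “Medium”, and none on “Low”.

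Vim and Lmna are also expressed by mesenchymal cells, so meningeal and vascular markers are given beside them. Of 12 such genes, 6 had a count and 3 were tested, with a median of -0.21, 1 above 0 and 2 below (0.13, 2 above and 1 below under library sizes alone), and Dcn, Lum, Pdgfrb, Pecam1, Cldn5 and Cdh5 were at 0 in all libraries. Their summed level was 103 and 137 CPM on “High”, 14.9 and 401 on “Medium”, and 52.2 and 20.3 on “Low”. The one high library was “Medium” replicate 2, where Col1a1, a fibroblast collagen, had 2005 counts, beside 0 in the other “Medium” library. Acta2, the smooth muscle actin gene, had 277 and 423 counts on “High”, 0 and 0 on “Medium”, and 0 and 120 on “Low”, so both “High” libraries were highest for it as they were for Lmna (edgeR adjusted p = 0.801, DESeq2 adjusted p = 0.0438). Tagln, another smooth muscle gene, had 187 and 0 counts on “High”, 87 and 0 on “Medium”, and 360 and 0 on “Low”. The part of such cells in the levels of Lmna was not tested. Of 10 microglia markers, 8 were at 0 in all libraries, and their sum reached 7.10 CPM at most.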

How the data were processed

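RNA was measured in 6 libraries, 2 for each film, grouped by the film named in their labels. The authors made QuantSeq 3′ libraries, aligned them with Bowtie2 and used bedtools to count alignments per gene, reads with several alignments included. The submitters' processing notes name the build rn6. What the authors deposited are whole-number counts, 1 table of 17048 rows per library, in which 167 rows repeat a symbol, none of them a gene followed here. Counting multiple alignments leaves near-identical genes uncertain, and the strand setting and the removal of PCR duplicates are not given in the sources used here. Tables held 0 columns of other samples.

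The software was R 4.3.3, with DESeq2 1.42.0, edgeR 4.0.16 and limma 3.58.1. filterByExpr kept 7729 of 9566 rows with a count, and TMM, a quasi-likelihood fit of the 3 film means over all 6 libraries and Benjamini-Hochberg adjustment over all tested rows followed, with a threshold of 0.05. The common dispersion was 2.04, with 3 residual degrees of freedom beside 6.96 prior ones. Standard errors and 95% intervals come from the F statistic of each gene and are not adjusted for the number of rows tested. Ratios of 2 genes were taken from counts plus 1 and compared by exact permutation over libraries. With 2 libraries against 2, an exact permutation test cannot go below p = 0.333. Alternatives were DESeq2, limma-voom, other scaling, other filters, a replicate block and leaving out each library. The steps were tested on simulated data.

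The genes followed and the lists were chosen with earlier results of these data known. All 10 genes are named. Of each list, the genes that could be named were those called against “High” and the up to 4 tested genes with the highest mean log2 CPM, beside markers at 0 in all libraries. Aurkb, Cryab, Pak1, Hspb1, Map2, Elavl3, Stmn2, Snap25, Dcx, Fabp7, Hes1, Glul, Pou3f1 and Nfib fall outside this and were chosen after their values were seen. The genes of like pattern were the 3 with the highest Pearson correlation over the 6 libraries among those with a mean log2 CPM of at least 6.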

Additional observations from a re-analysis of the deposited data

How the results depend on the processing

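In “Low” and “Medium” against “High”, Nes (log2 fold change 1.56 to 2.04), Vim (0.44 to 0.97), Lmna (-1.70 to -1.03) and Lmnb2 (-1.39 to -0.31) kept their direction under all 20 alternatives. DESeq2 called 3 members, beside 348 of all 7729 rows. Every other alternative called 0 members, beside the smaller counts of all rows given in the next paragraph. Of the film-by-film contrasts, besides DESeq2, Nes on “Medium” passed without Medium replicate 2 when the filter was applied anew (edgeR adjusted p = 0.0473). That anew filter was added after seeing the data. Fitted changes of genes with libraries at 0 depend on single libraries: leaving out each library in turn gave Sync -4.24 to 7.08 in “Low” and “Medium” against “High”, -8.29 to 3.04 on “Low” and -0.20 to 11.12 on “Medium” against “High”, turned by the “High” libraries. Between “Low” and “Medium” it gave Ina -8.43 to 7.51 and Lmnb1 -4.78 to 3.05. Vim (-0.25 to 0.27) and Lmna (-0.19 to 0.11), with counts in every library, changed sign there as well. limma-voom reversed Sync in “Low” and “Medium” against “High” (0.37), and Vim (-0.030) and Lmnb1 (-0.84) between “Low” and “Medium”.

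The counts of all rows called by edgeR were 10 in “Low” and “Medium” against “High”, 4 on “Low” against “High”, 1 on “Medium” against “High” and 0 on “Low” against “Medium”. In this order, DESeq2 called 348, 279, 303 and 107, and no filter gave 68, 34, 48 and 5. A mean count of at least 10 gave 56, 30 and 40, and limma-voom 23, 16 and 14, for the contrasts against “High”. Library sizes alone gave 14, 0 and 0 calls in the 3 contrasts against “High” and moved the median of all rows by 0.38, 0.40 and 0.35. Leaving out each library gave 0 to 4, 0 to 3, 0 to 1 and 0 calls, and with the filter applied anew up to 242, 65, 275 and 194, the 242, 275 and 194 without Medium replicate 2. The cause was not tested.

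Replicate numbers did not pair the libraries: same-numbered deviations from the film means correlated at 0.0066, 0.0034 and 0.0073. A replicate block gave 57, 30 and 39 calls against “High”, called 0 members and reversed Lmnb1 between “Low” and “Medium” (-0.24). With 2 libraries per film and a biological coefficient of variation of 1.43, small changes of sparse genes were not detectable. Larger changes of well-counted genes did not pass either. Nes, at 4.21 times its “High” level on “Medium”, had an edgeR adjusted p of 0.351, so a gene that was not called may still differ.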
